A study of Homo sapiens with 45 samples.

Results

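MDA-MB-436 is an established human triple-negative breast cancer cell line, and the values described here are those of its 3 RNA sequencing libraries set against 18 libraries of 6 other lines, out of 45 libraries of 15 lines in the series. The 6 other lines, with 3 libraries each, were BT-549, HCC1395, HCC38, Hs578T, MDA-MB-157 and MDA-MB-231. All 7 lines are classed in the literature as basal B, and the labels do not give that class. The members were taken by line name, and no measured value entered the choice.

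All libraries were made from untreated cells, and the study concerns MYC, mitochondrial complex I and glutamine use in breast cancer lines. MDA-MB-436 was grown in L-15 medium with 10 µg/mL insulin and 16 µg/mL glutathione. MDA-MB-157 and MDA-MB-231 were grown in L-15 without either addition. BT-549 was grown in RPMI 1640 with 2 µg/mL insulin, HCC1395 and HCC38 in RPMI 1640, and Hs578T in DMEM. Runs 3, 4 and 5 each held 1 library of MDA-MB-436, BT-549, HCC1395 and MDA-MB-157, while HCC38, Hs578T and MDA-MB-231 were in runs 1 and 2. Each line is 1 culture model of 1 tumour, so the 3 libraries of a line show the spread between libraries and not between tumours. The labels do not say that the libraries of a line came from separate cultures, and p-values then measure only the spread between these libraries, which may be technical.

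Basal B, or claudin-low, lines express vimentin and other mesenchymal genes and little of the epithelial adhesion genes. Interleukin-1 alpha and beta are secreted ligands that bind the receptor IL1R1, and the adaptors MYD88 and the IRAK kinases pass the signal on to NF-kB, a family of transcription factors. Genes that NF-kB is known to act on include interleukin-6, the CXCL chemokines and NF-kB's own inhibitors. MDA-MB-436 is also known as a BRCA1-mutant line and as a line without the RB1 protein, the brake on entry into S phase.

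The series' libraries of these 7 lines held between 2312138 and 10206100 counts, and those of MDA-MB-436 held 5765185, 6342703 and 6565166. The shallowest, Hs578T replicate 2, also had the highest share of counts from the mitochondrial genome, at 0.782%, against 0.143%, 0.17% and 0.283% in MDA-MB-436. Levels are given in CPM, the counts of a gene in each 1e6 counts of its library, after the library totals were scaled (TMM). Marker sums and CPM values from counts summed over a line's libraries used the unscaled totals. A difference is the log2 level in MDA-MB-436 minus the mean log2 level of the 6 other lines. Some genes that every cell uses held nearly no counts in any of the 45 libraries, among them NDUFS1 with 15 counts in all and FBL with 5, so levels are not comparable between genes. No level was adjusted for gene length, and values are compared only within a gene.

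The labelled cell type was checked on marker lists. Vimentin (VIM), the mesenchymal intermediate filament, was at 1630, 1758 and 1626 CPM in MDA-MB-436 and ran from 330 through a median of 2733 to 4846 CPM in the others. The cell adhesion molecule E-cadherin (CDH1) was at 0.834, 1.52 and 1.64 CPM, against 0.191, 1.32 and 297 CPM, and EPCAM at 7.17, 5.46 and 4.91 CPM, against 0.345, 4.72 and 950 CPM. The highest values of both came from HCC38, where CDH1 averaged 271 ± 23.1 CPM and EPCAM 876 ± 88.4 CPM (SD, n = 3). The summed level of the 27 epithelial markers was 204 to 246 CPM in MDA-MB-436 and 99.3 to 6516 CPM, with a median of 351, in the others, and 3 of the markers (CRB3, MARVELD2 and OVOL2) had at most 3 counts. The 7 blood cell markers summed to 7.46 to 9.14 CPM, with haemoglobin HBB at no more than 3 counts, and the 8 endothelial markers to 11.1 to 19.6 CPM. The part of these marker differences in other results was not tested.

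Against the mean of the 6 lines, 2522 of 18272 tested genes were higher in MDA-MB-436 (13.8%) and 2136 were lower (11.7%), at an adjusted p under 0.05 and a log2 difference of at least 1. Of these, 583 were higher than in each of the 6 lines (3.19% of all tested genes) and 627 lower (3.43% of all tested genes), tested 1 line at a time. Against each single line an adjusted p under 0.05 and the same sign were needed, without a minimum difference. A gene called only against the mean can be as high or as low, or more so, in another line. The median difference of all tested genes was 0.03. Shares of the gene lists below are to be read beside the 13.8% and 11.7%. Against the other L-15 lines, 2629 of 15886 tested genes were higher and 2727 lower. Within runs 3 to 5, 2709 of 16694 were higher and 2422 lower. Taken 1 line at a time, with a log2 difference of at least 1, 5541 genes (30.3%) differed between MDA-MB-436 and MDA-MB-231, the lowest count. Between MDA-MB-436 and HCC38 7058 (38.6%) differed, the highest count. These counts rest on the spread between libraries of a line. Where the counts were summed per line and 1 line was tested against 6 with the spread between lines, edgeR called 0 genes higher and 0 lower. In that test, of 27893 genes, 433 higher and 379 lower ones had an unadjusted p under 0.05. Without any difference a share of about 0.05 would be under that limit, so these counts show no excess. DESeq2 on the libraries called 2546 and 2094, and limma-voom 2662 and 2156.

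The interleukin-1 ligands were among the genes with the largest differences. IL1B (GENCODE 29, GRCh38, chr2:112829751-112836903, minus strand, protein coding) was at 664, 764 and 844 CPM in MDA-MB-436, against 0, 0.48 and 18.2 CPM as the lowest, median and highest of the other 18 libraries. The groups did not overlap, and the log2 difference was 9.49 ± 0.21 (SE, adjusted p = 2.03e-21). IL1A, which encodes the other interleukin-1 agonist, was at 477, 497 and 344 CPM, against 0.126, 0.684 and 26.4 CPM. All 3 libraries again lay above all others, with a difference of 8.56 ± 0.21 (adjusted p = 1.12e-20). Hs578T held the next highest mean of IL1B, 11.5 ± 6.76 CPM, and MDA-MB-231 that of IL1A, 14 ± 10.9 CPM (SD, n = 3).

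Of the 22 listed interleukin-1 family and pathway genes 18 were tested, and 12 were higher (66.7%) and 3 lower (16.7%), with a median difference of 1.47. Among them 7 were higher than in each other line, IL1B and IL1A included. IL33, an alarmin of the same family, was at 14.7, 16.1 and 17.7 CPM, above the 0.214 to 11 CPM of the others, and its difference was 2.78 ± 0.4. IL18R1, a receptor chain for interleukin-18, differed by 2.77 ± 0.25, and CASP1, the protease that cuts pro-interleukin-1 beta, by 2.63 ± 0.15. The kinases IRAK2 and IRAK3, the latter known as a negative regulator, differed by 2.07 ± 0.15 and 2.13 ± 0.2. The receptor itself was not called: IL1R1 was at 31.9, 33.8 and 31.1 CPM within the 15.7 to 113 CPM of the other lines, a difference of -0.27 ± 0.18 (adjusted p = 0.234). The receptor's accessory chain IL1RAP was lower by 1.5 on the log2 scale (a difference of -1.5 ± 0.17), the inflammasome sensor NLRP3 differed by -1.56 ± 0.46, and the kinase IRAK4 by -1.15. The receptor antagonist IL1RN passed no filter, with 498 counts over all 45 libraries, so the ratio of agonist to antagonist was not given.

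Secreted cytokines and chemokines were higher in the same libraries: 16 of the 25 tested were called higher (64%) and 3 lower (12%), and the median difference was 2.13. CXCL8, the neutrophil chemoattractant interleukin-8, was at 1629, 1381 and 1161 CPM, against 0, 95.9 and 1089 CPM. Its groups did not overlap, but Hs578T averaged 709 ± 439 CPM (SD, n = 3), and the gene did not pass against each line; the difference from the mean was 5.51 ± 0.29 (adjusted p = 4.31e-14). IL6 was at 30.5, 37.3 and 30.4 CPM, against 0, 2.54 and 48.2 CPM, and overlapped with Hs578T alone, at 28.3 ± 17.4 CPM. Its difference from the mean was 4.58 ± 0.27 (adjusted p = 1.21e-12). The granulocyte growth factor CSF3 reached 7.51, 7.88 and 5.86 CPM, and no other library was above 0.834 CPM. CCL20, which attracts CCR6-bearing lymphocytes, was at 39, 32.9 and 24.9 CPM, against at most 3.81 CPM. Both lay above each line, by 6.7 ± 0.45 and 5.92 ± 0.3. IL24 was at 8.84, 9.25 and 11.3 CPM, inside the range of MDA-MB-231 (9.63 ± 8.66 CPM). The members called lower were TNFSF10, the death ligand TRAIL, at -2.87, IL11 at -1.62 and TSLP at -1.2.

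**Figure D1:**
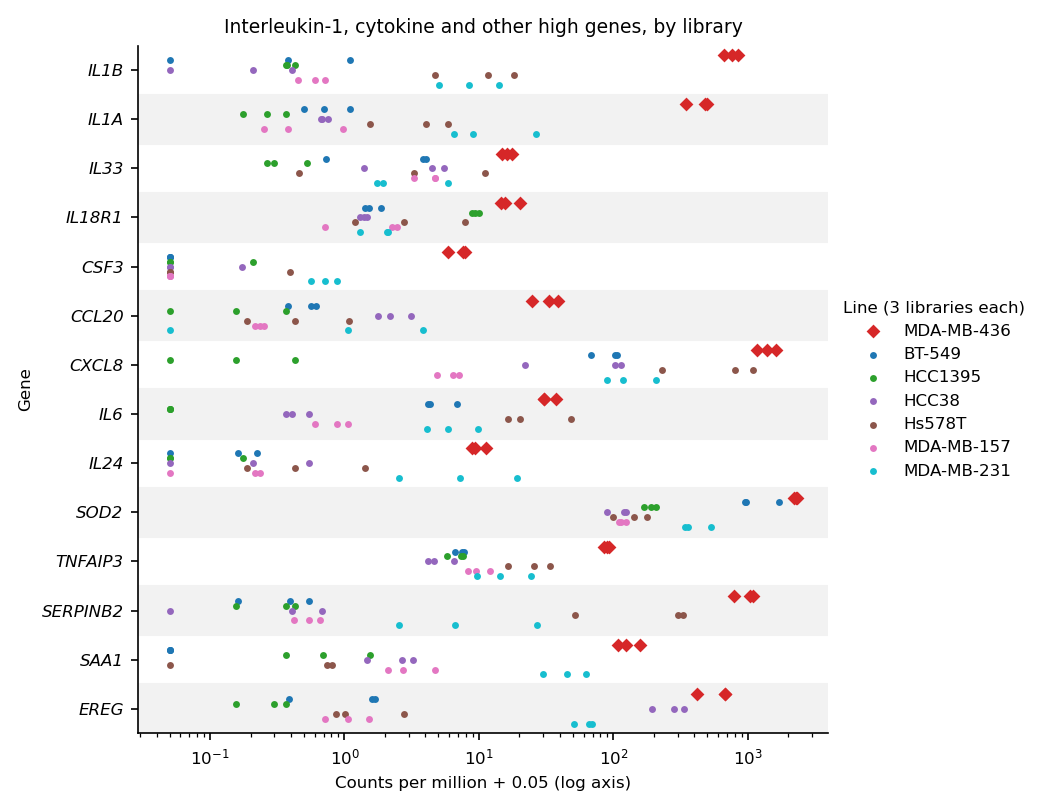
Level of 14 genes in the 21 libraries, as CPM plus 0.05 on a log axis; each point is 1 library, diamonds are MDA-MB-436 and circles the 6 other lines. IL1B, at 664 to 844 CPM, and IL1A, at 344 to 497 CPM, lie to the right of all other libraries, whose highest values are 18.2 and 26.4 CPM, while IL6 and IL24 overlap with Hs578T and MDA-MB-231.

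NF-kB genes followed in part. Of 23 tested subunits, inhibitors and targets, 11 were higher (47.8%) and 2 lower (8.7%), with a median difference of 0.9. SOD2, the mitochondrial superoxide dismutase, was at 2311, 2294 and 2199 CPM, above the 90.3 to 1693 CPM of the others, with BT-549 next at 1204 ± 424 CPM. Its difference was 3.27 ± 0.13 (adjusted p = 3.12e-16). TNFAIP3, which encodes A20, a deubiquitinase that restrains NF-kB, was at 89.9, 93.2 and 85.5 CPM, against at most 34 CPM, a difference of 3.16 ± 0.15. TNFAIP2 was at 80.7, 72.6 and 80.6 CPM, above every other library, but MDA-MB-157 averaged 70.2 ± 2.08 CPM; against the other L-15 lines the difference was 0.48 and was not called. TRAF1, an adaptor of TNF receptors, was at 24.5, 18.8 and 25.5 CPM and lay below HCC1395, at 42.1 ± 4.28 CPM, while its libraries overlapped with the 16.1, 20 and 22.9 CPM of MDA-MB-231. The 2 members called lower were the adhesion molecule VCAM1 (-1.56) and the kinase IKBKB (-1.07). The 3 lists of interleukin-1, cytokine and NF-kB genes were chosen with earlier results of these data known, so their counts are no independent evidence of a direction.

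The promoters of the called members were read from the RefSeq table of GRCh38.p14, in windows of 250 bases before to 50 bases after each gene's start. A 10-base kappa-B form, GGG followed by any 3 bases, 2 T and 2 C, was searched on both strands. Of the 39 members called higher, 32 had a window and 11 of these held a match (34.4%), against 3 of 22 windows of members not called higher (13.6%) and 2289 of 35116 windows of all promoters (6.52%). A match is only a string of letters and not a measured binding site. The lists name NF-kB targets, so a share above that of all promoters follows from the choice of genes and is no independent result. Members were counted with 1 window each, all promoters with every window. CXCL1, CXCL2, CXCL3, CXCL5 and CXCL6, related genes of chromosome 4, were among the 11 and are not independent of each other. Below, the bases from 120 to 31 before the start are given for the 6 matching genes with the largest differences, 5′ to 3′ on the gene's strand, with the match in capitals. In CXCL3 and CXCL2 a match on each strand overlaps to 11 bases, and in TNFAIP3 there are 2 separate matches.
CCL20 (chr2:227813722-227813811, plus strand, difference 5.92): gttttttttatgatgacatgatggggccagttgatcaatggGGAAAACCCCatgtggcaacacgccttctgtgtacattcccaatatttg
CXCL3 (chr4:74038720-74038809, minus strand, difference 4.61): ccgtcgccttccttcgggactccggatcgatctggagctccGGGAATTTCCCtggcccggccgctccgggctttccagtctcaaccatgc
IL6 (chr7:22727080-22727169, plus strand, difference 4.58): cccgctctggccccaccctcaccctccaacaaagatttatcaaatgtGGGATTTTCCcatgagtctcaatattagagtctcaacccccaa
IL32 (chr16:3065283-3065372, plus strand, difference 4.13): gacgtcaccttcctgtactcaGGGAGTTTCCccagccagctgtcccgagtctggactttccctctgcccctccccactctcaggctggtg
CXCL2 (chr4:74099226-74099315, minus strand, difference 3.8): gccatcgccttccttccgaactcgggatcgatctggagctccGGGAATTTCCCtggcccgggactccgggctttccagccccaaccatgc
TNFAIP3 (chr6:137867139-137867228, plus strand, difference 3.16): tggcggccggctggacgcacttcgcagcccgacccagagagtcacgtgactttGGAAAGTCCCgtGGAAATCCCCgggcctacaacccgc

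CXCL3 was at 55.2, 63.5 and 39.3 CPM, against at most 8.96 CPM, and was higher than in each line. CXCL2 was at 138, 161 and 121 CPM and overlapped with HCC1395, which reached 134 CPM. IL32 was at 22.8, 22.3 and 25.2 CPM, against at most 10.3 CPM.

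Interferon-stimulated genes, which are known to answer interferon and sensors of foreign RNA, divided among themselves. Of 25 tested, 9 were higher (36%) and 3 lower (12%), and the median difference was -0.15. The antiviral OASL was at 40.4, 38 and 38.7 CPM, within the 0 to 50.3 CPM of the others, and differed from the mean by 4.02 ± 0.4 (adjusted p = 4.34e-09). CMPK2 and RSAD2, neighbouring antiviral genes, differed by 4 ± 0.52 and 3.52 ± 0.5, and BT-549 varied widely in both (18.4 ± 26.4 and 55.1 ± 83.8 CPM). XAF1 was lower, at 1.5, 1.06 and 2.18 CPM, by 2.26 on the log2 scale (a difference of -2.26 ± 0.68, adjusted p = 0.00673); within runs 3 to 5 its adjusted p was 0.0836.

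HLA class I molecules present peptides to T cells. HLA-B was at 0.334, 0.455 and 0.136 CPM and lay below all others, which held 2.59 to 63.3 CPM, with a difference of -5.53 ± 0.42 (adjusted p = 3.92e-11). Of the 17 listed genes of this region and its peptide pathway, only 11 were tested, with 1 higher (9.09%) and 4 lower (36.4%). The table carries further copies of this region under identifiers without a name in GENCODE 29, so low HLA expression and reads given to another copy cannot be told apart. B2M, the light chain shared by these molecules and encoded elsewhere, was at 417, 357 and 331 CPM, inside the 0.185 to 420 CPM of the others. Its called difference of 3.46 ± 0.18 was taken against a mean that includes MDA-MB-157, at 0.295 CPM, and HCC1395, at 0.861 CPM.

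Other genes higher than in each line had varied roles. RENBP, an enzyme of N-acetylglucosamine metabolism, was at 54, 45.2 and 43.1 CPM, against at most 0.377 CPM, a difference of 9.2 ± 0.26 (adjusted p = 3.05e-17). SERPINB2, plasminogen activator inhibitor 2, was at 1031, 1093 and 787 CPM, against 0, 0.496 and 332 CPM, with Hs578T next at 228 ± 154 CPM. BHMT2, a methyltransferase of methionine synthesis, was at 620, 661 and 458 CPM, against at most 141 CPM in HCC38, a difference of 7.96 ± 0.17. The groups did not overlap in any of the 3. EREG, which encodes the EGF receptor ligand epiregulin, was at 672, 682 and 419 CPM, above the 333 CPM reached in HCC38, and differed by 7.13 ± 0.17. The acute phase protein SAA1 (6.81 ± 0.22), the endothelial proteoglycan ESM1 (6.54 ± 0.39), the elastase inhibitor PI3 (6.39 ± 0.27), TM4SF19 (6.87 ± 0.3), the acyltransferase MOGAT2 (6.19 ± 0.33) and BEX1 (6.16 ± 0.16) completed the 12 protein-coding genes with the largest differences among those called against each line and with a mean of at least 10 CPM. Over line sums, unadjusted p was 9.92e-06 for MOGAT2, 1.5e-05 for RENBP, 0.000261 for IL1B and 0.000348 for IL1A, but 0.184 for EREG and 0.179 for BEX1, and no adjusted p was under 0.05.

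**Figure D2:**
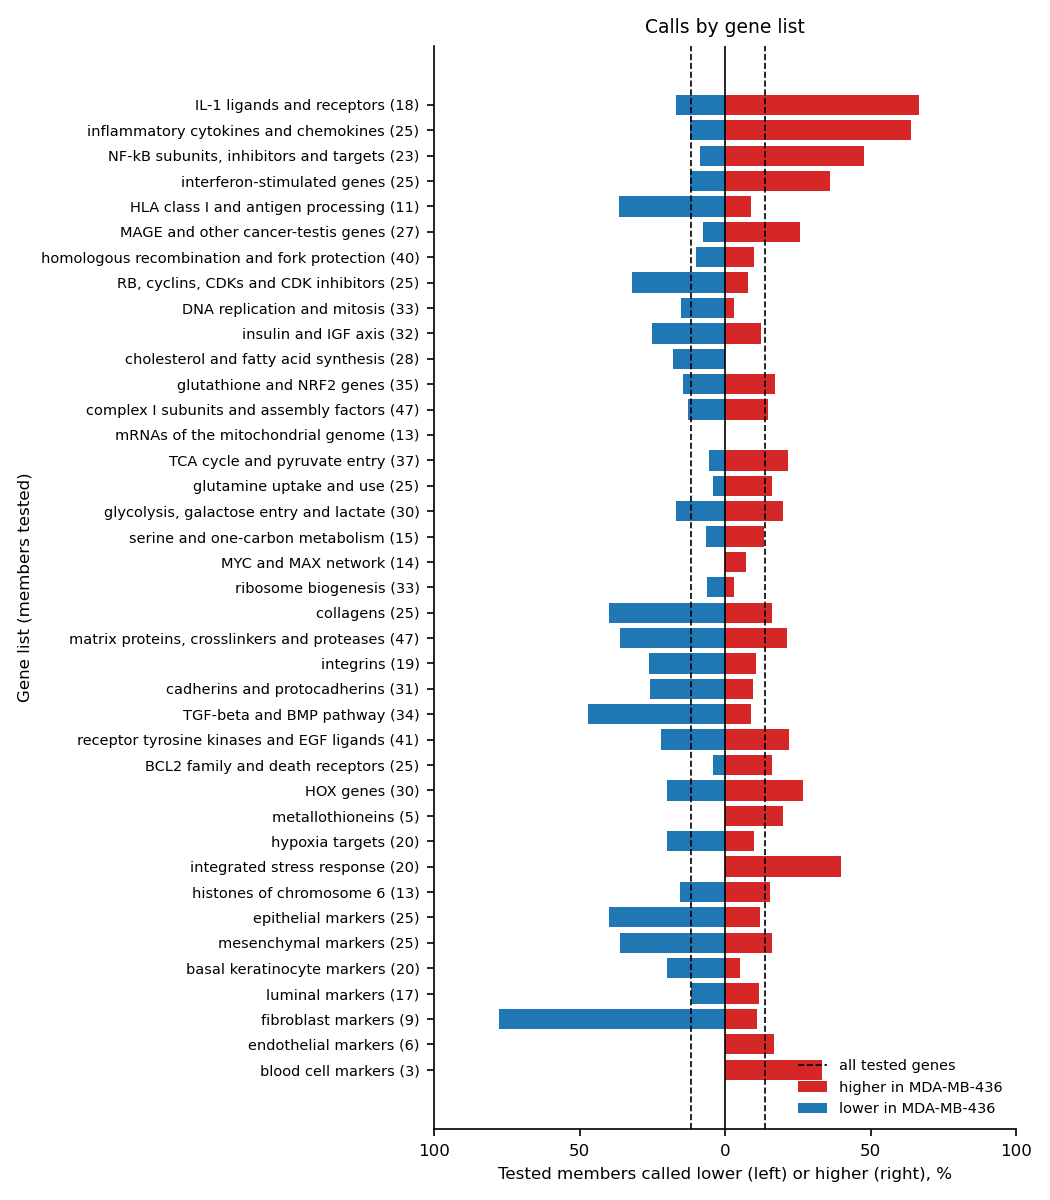
Share of tested members of each of 39 gene lists called higher (right, red) or lower (left, blue) in MDA-MB-436, in percent; the number tested follows each name and dashed lines mark 13.8% and 11.7%, the shares over all genes. The interleukin-1 (66.7%) and cytokine (64%) lists reach farthest to the right, and among the pathway lists the TGF-beta and BMP list (47.1%) reaches farthest to the left.

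At the other end, PCDH9, a protocadherin (chr13:66302834-67230445), had 0 counts in all 3 libraries. The other lines held 4.78 to 56.7 CPM, with a median of 10.5. Taking a floor of 3 counts over the 3 libraries (0.161 CPM), PCDH9 was at least 67.2-fold lower than the median of the 6 line sums, and in the 8 remaining lines of the series it ran from 1.38 to 15.9 CPM. Its 6 nearest tested protein-coding neighbours, all more than 3 Mb away at their starts, were not called, so the missing counts did not extend to them. Of 64440 genes, 4 had at most 3 counts in MDA-MB-436 and at least 5 CPM in 5 or more of the other lines; the other 3 have no GENCODE name. In the converse, the noncoding gene AL358876.2 had 231 counts in MDA-MB-436 and at most 2 in any other basal B line, and the olfactory receptor pseudogene OR7E62P had 222 against 1. Another gene with reads in MDA-MB-436 only has no name and held 104 counts.

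NF2, which encodes the tumour suppressor merlin, was at 0.334, 0.606 and 1.36 CPM, against 9.38, 148 and 324 CPM. All others lay above, MDA-MB-231 being the next lowest at 12.3 CPM, and the difference was -7.05 ± 0.28 (adjusted p = 1.8e-16). TNFRSF10D, a decoy receptor for TRAIL, was at 0.334, 0.303 and 0.136 CPM, against at least 4.6 CPM, a difference of -7.45 ± 0.4. TNFRSF10A, a signalling TRAIL receptor whose start is 0.0549 Mb away, was higher instead, by 1.19 ± 0.13. KCTD9 was at 2.33, 2.27 and 1.23 CPM, against at least 63.8 CPM (a difference of -6.04 ± 0.26), and DHTKD1, a mitochondrial dehydrogenase subunit of lysine breakdown, at 0.667, 1.67 and 2.32 CPM, against at least 14.7 CPM (-5.1 ± 0.25). The neighbours of DHTKD1 were not called lower. ZNF486, a zinc finger gene of chromosome 19, was at 1.17, 0.455 and 0.682 CPM, against at least 11.7 CPM. There 4 of its 6 nearest neighbours were lower too: ZNF682 by 3.04, ZNF90 by 2.39, ZNF737 by 2.31 and ZNF626 by 4.45 (differences of -3.04, -2.39, -2.31 and -4.45). ID4, FAM50B, PWP2, ANGPT1 and ZNF518B, with differences between -5.38 and -4.74, completed the 12 with HLA-B.

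**Figure D3:**
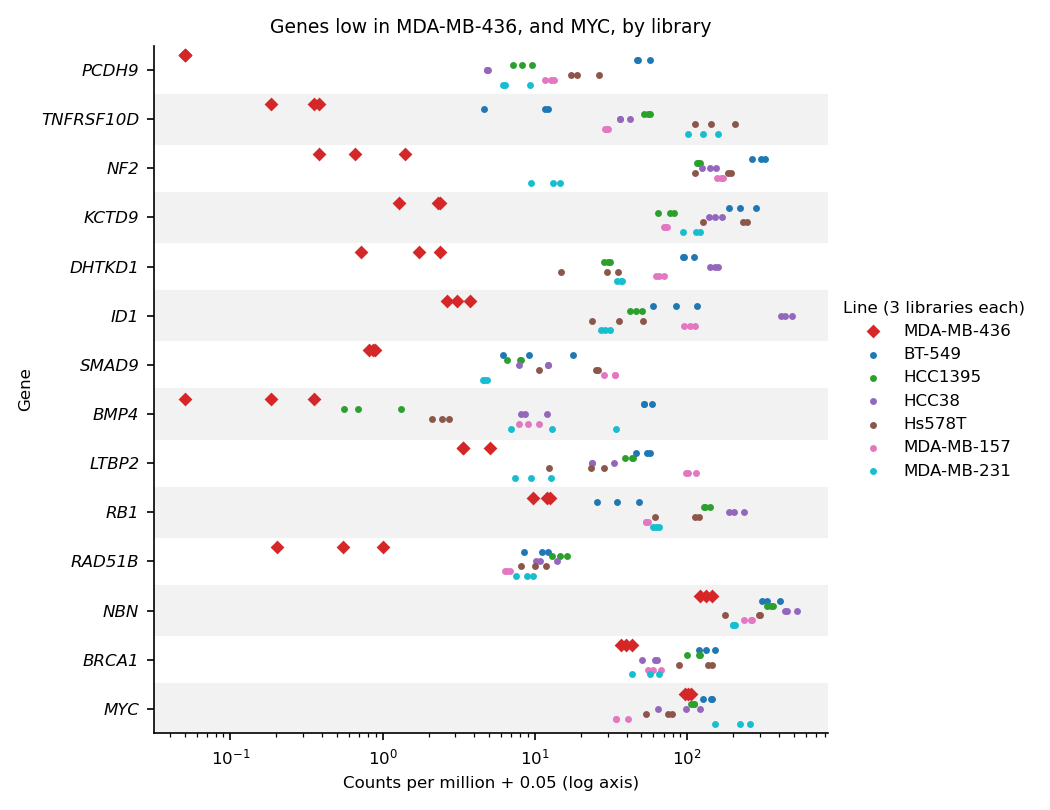
Level of 13 genes called lower in MDA-MB-436, and of MYC, in the 21 libraries, as CPM plus 0.05 on a log axis; each point is 1 library and diamonds are MDA-MB-436. PCDH9 sits at 0 counts and ID1 at 2.59 to 3.67 CPM, left of all other libraries, BRCA1 (36.4 to 43.2 CPM) touches the lowest other library (43 CPM), and MYC (96.7 to 106 CPM) lies within the others.

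Lower genes of the TGF-beta and BMP pathway made up the largest share of any pathway list. These ligands bind serine-threonine kinase receptors that pass phosphate to SMAD proteins, and the ID genes are classical BMP targets. Of 34 tested, 16 were lower (47.1%) and 3 higher (8.82%), with a median difference of -0.96. Among ligands, BMP4 was at 0, 0.303 and 0.136 CPM, below the 0.503 to 58.9 CPM of the others (-5.43 ± 0.63, adjusted p = 7.47e-08), while BMP7 was higher (2.56). TGFB1, TGFB2 and TGFB3 were all called lower, at -1.33, -2.26 and -1.66. Of the SMADs, SMAD9 was at 0.834, 0.758 and 0.818 CPM, against 4.48, 9.89 and 33.7 CPM, a difference of -3.86 ± 0.38 with no overlap. SMAD4, the partner shared by both arms, was at 27, 25.3 and 27.5 CPM, against 49.6, 102 and 144 CPM, and differed by -1.87 ± 0.14 (adjusted p = 2.58e-11). The inhibitory SMAD6 and SMAD7 differed by -2.89 and -1.56. ID1 was at 3.67, 3.03 and 2.59 CPM, against 23.7, 55.3 and 489 CPM, a difference of -4.63 ± 0.25 (adjusted p = 7.29e-14). LTBP2, a latent TGF-beta binding protein of the matrix, differed by -3.07 ± 0.22. ID1, SMAD9, SMAD4 and LTBP2 lay below each line, and 15 members of the list were lower against the L-15 lines and 14 within runs 3 to 5.

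Genes of the extracellular matrix went both ways. Of 25 collagen genes 10 were lower (40%) and 4 higher (16%), and of 47 other matrix proteins, crosslinkers and proteases 17 were lower (36.2%) and 10 higher (21.3%). Against the L-15 lines 18 collagens were lower and 3 higher, and within runs 3 to 5 the counts were 7 and 6. Fibrillar collagens were low but not alone in that: COL1A2 was at 2.84, 1.52 and 2.73 CPM, inside the 1.01 to 2862 CPM of the others, where Hs578T averaged 1721 ± 1048 CPM (SD, n = 3). COL6A3 differed by -3.08 ± 0.35, with HCC1395 lower still at 0.902 CPM, but by -0.65 within runs 3 to 5 (adjusted p = 0.0673), and COL3A1 by -2.91 ± 0.46. COL16A1, a fibril-associated collagen, was higher than in each line, at 108, 94.9 and 86.4 CPM against at most 85 CPM (3.52 ± 0.16). SPARC, a matrix glycoprotein, was at 1.33, 1.21 and 3 CPM, against 0.536, 172 and 4380 CPM, a difference of -5.38 ± 0.34, and HCC1395 and MDA-MB-231 were as low, at 0.819 and 1.36 CPM. MMP14, a membrane-bound collagenase, was below each line (-4.62 ± 0.18). The secreted proteases MMP1 and MMP3 were high: MMP1 was at 1362, 1214 and 1142 CPM, against 0.822, 4.8 and 8808 CPM, and overlapped with MDA-MB-231, at 3944 ± 4265 CPM. MMP3 was at 74.6, 68.5 and 51.9 CPM, against at most 30 CPM, and LAMA1, a laminin chain of basement membranes, at 150, 143 and 160 CPM, against at most 44.2 CPM. Both lay above each line, by 5.91 ± 0.54 and 4.93 ± 0.26.

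Adhesion receptors were mostly not called or lower. Of 19 integrins 5 were lower (26.3%) and 2 higher (10.5%). ITGB1, the most widely paired beta chain, was at 635, 615 and 487 CPM, below the 642 to 3294 CPM of the others, with a difference of -1.57 ± 0.15, and against the L-15 lines of -0.97. ITGB5 was at 47.2, 43 and 41.6 CPM, against at least 73.4 CPM, and lay below each line (-1.84 ± 0.17). ITGB3 and ITGB2 differed by -2.83 ± 0.42 and -2.62 ± 0.6. Of 31 cadherins and protocadherins 8 were lower (25.8%) and 3 higher (9.68%). CDH13, a cadherin held by a lipid anchor, was at 95.9, 112 and 115 CPM, against 0.107, 1.52 and 176 CPM, and shared its high level with Hs578T (142 ± 34.7 CPM). P-cadherin (CDH3) and PCDH7 differed by -2.47 ± 0.38 and -2.7 ± 0.24.

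The lineage markers placed MDA-MB-436 among the lines with little epithelial expression. Of 25 tested epithelial markers 10 were lower (40%) and 3 higher (12%), but of the 14 tested within runs 3 to 5, without HCC38, Hs578T and MDA-MB-231, edgeR called 4 higher and 0 lower, with 2 lower at an unadjusted p under 0.05. The keratin KRT7 was at 4.84, 5.61 and 8.45 CPM, against 1.33, 36.3 and 2045 CPM, and its difference of -2.36 ± 0.3 was -0.24 within those runs. SPINT2 and CLDN4 differed by -2.73 ± 0.27 and -2.22 ± 0.42, with HCC38 at 595 ± 31.1 and 152 ± 3.87 CPM, and without HCC38 CLDN4 differed by -1.14 (adjusted p = 0.06). CRB3 had 0 counts, with BT-549 at 0.0924 CPM, and was not called without Hs578T replicate 2 or MDA-MB-157 replicate 2 (adjusted p = 1). Of 25 mesenchymal markers 9 were lower (36%) and 4 higher (16%). The 4 were transcription factors of the mesenchymal state: PRRX1 at 97.2, 103 and 73.6 CPM (2.5 ± 0.12), ZEB2 (1.96), TWIST1 (1.88) and TWIST2 (1.58). PRRX1 was higher still in Hs578T, at 181, 109 and 201 CPM. ZEB1 was not called (0.01 ± 0.13, adjusted p = 0.957). Smooth muscle actin ACTA2 was at 2, 3.18 and 3.41 CPM, against 2.05, 32 and 321 CPM (-3.3 ± 0.51), and TGFBI was below all others (-3.04 ± 0.33). Of 9 fibroblast markers 7 were lower (77.8%) and FAP was higher, but 0 lay below each line. The summed level of the 9 was 121 to 123 CPM in MDA-MB-436, within 4.9 to 5325 CPM, with a median of 208, in the others. THY1 was at most 0.682 CPM in MDA-MB-436 and at most 1.01 CPM in HCC1395, HCC38, MDA-MB-157 and MDA-MB-231. Its difference was -2.98 ± 0.81 and, without BT-549, -2 (adjusted p = 0.0579). LUM differed by -3.4 ± 0.58, but BT-549, HCC1395 and HCC38 were about as low, at no more than 0.948 CPM, beside 0.409 to 0.667 CPM in MDA-MB-436.

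Basal keratinocyte and luminal genes were mostly not called. Of 20 basal markers 1 was higher (5%) and 4 lower (20%), but within runs 3 to 5 the counts were 5 and 1. SFN differed by -2.03 ± 0.36, and KRT15 by -1.37 ± 0.2 but by 0.23 within runs 3 to 5. The plakophilin PKP1 differed by 1.53 ± 0.46, or 0.55 without HCC1395. It was at 2.17, 1.06 and 1.91 CPM, with HCC38 higher at 3.32, 4.56 and 3.72 CPM. Of 17 luminal markers 2 were higher and 2 lower (11.8% each, beside 13.8% and 11.7% of all tested genes), and against the L-15 lines 2 and 6. FOXA1 was at 2, 3.49 and 2.45 CPM, against at most 4.27 CPM, ERBB3 differed by -1.56 ± 0.25 and MLPH by -1.05 ± 0.19, or -0.07 within runs 3 to 5 and -0.89 without HCC1395 replicate 2. Of the 6 endothelial and 3 blood cell markers tested, VWF (1.39 ± 0.48) and ITGAM (1.91 ± 0.38) were called higher at 2.33, 2.58 and 2.59 and at 2, 2.88 and 2.73 CPM. HCC1395 held more ITGAM, at 4.74, 4.4 and 6.22 CPM, and Hs578T replicate 2 more VWF, at 5.14 CPM. VWF was not called when any of the 3 MDA-MB-436 libraries was left out (adjusted p = 0.0532, 0.0708 and 0.0738).

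Among 40 DNA repair genes 4 were higher (10%) and 4 lower (10%), against 13.8% and 11.7% of all tested genes. Against the L-15 lines 12 were higher and 1 lower, and within runs 3 to 5 the counts were 2 and 6. BRCA1, a scaffold of homologous recombination, was at 43.2, 39.6 and 36.4 CPM, against 43, 77.7 and 152 CPM. The groups overlapped by 1 library, and the difference was -1.09 ± 0.15 (adjusted p = 5.97e-07), and -0.95 without BT-549, -0.96 without Hs578T and -0.52 against the L-15 lines, where it was not called. RAD51B, a gene of the same repair path, was at 0.5, 0.152 and 0.954 CPM, against 6.3, 10 and 16.2 CPM, a difference of -4.13 ± 0.31 (adjusted p = 3.06e-11). Its neighbour ZFYVE26, whose start is 0.0924 Mb away, was lower too, by 4.42 (a difference of -4.42 ± 0.23), and the neighbours ZFP36L1 and ACTN1 on the other side differed by -1.7 and -1.03. NBN, a sensor of broken ends, was at 145, 133 and 121 CPM, below the 178 to 529 CPM of the others (-1.19 ± 0.14), and at -0.75 against the L-15 lines. TP53BP1, which opposes BRCA1 in the choice of repair path, was higher than in each line, at 280, 274 and 267 CPM against at most 232 CPM (1.19 ± 0.11), and at 0.98 within runs 3 to 5. POLQ, the polymerase of end joining by short homology, was at 167, 141 and 126 CPM, against at most 119 CPM (1.13 ± 0.11). SLFN11, which blocks stressed replication forks, was at 75.6, 75.2 and 71.6 CPM, below HCC38 (108 ± 19.9 CPM) and above the other lines, and differed from the mean by 2.92 ± 0.17. BRCA2 was not called (0.12).

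In the RB and cyclin list 8 of 25 were lower (32%) and 2 higher (8%), but against the L-15 lines 3 were lower and 6 higher. RB1 was at 12, 9.7 and 12.5 CPM, against 25.4, 63.7 and 236 CPM, below all others, with a difference of -2.86 ± 0.2 (adjusted p = 6.86e-12). RB1 still held 228 counts over the 3 libraries. Neighbours of RB1 were lower too: ITM2B by 1.63 (-1.63 ± 0.19), LPAR6 at -1.79 ± 0.73 and RCBTB2 at -1.68 ± 0.2, whereas MED4 was not called. LPAR6 lies within RB1, and reads of overlapping genes cannot be told apart here. CDKN2A, which encodes p16 and ARF, was at 29.9, 32.6 and 31.1 CPM, against 0, 9.88 and 207 CPM. HCC38 and MDA-MB-231 averaged 0 CPM and BT-549 161 ± 40.3 CPM, and the called difference of 3.79 ± 0.21 reversed to -0.82 within runs 3 to 5. CCND2 was at 13.2, 10.9 and 11.5 CPM, below the 22.9, 38 and 57.8 CPM of MDA-MB-231, and differed from the mean by 2.76 ± 0.27. CCNE2 differed by -1.69 ± 0.15, or -0.67 against the L-15 lines.

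Of 33 DNA replication and mitosis genes, 5 were lower (15.2%, against 11.7% of all tested genes) and 1 higher (3.03%). CDC45, a helicase subunit, was at 37, 35.5 and 28.6 CPM, below the 41.2 to 184 CPM of the others (-1.31 ± 0.15). CENPA differed by -1.2 ± 0.23, and MCM3 and TYMS by -1.07 ± 0.16 and -1.06 ± 0.23. The last pair sat at the threshold: MCM3 was -0.97 without MDA-MB-436 replicate 3, and TYMS -0.98 without replicate 1, -0.95 without replicate 3 and -1 without Hs578T replicate 1. Against the L-15 lines edgeR called 11 of the 33 higher and 0 lower, with 6 lower at an unadjusted p under 0.05. Of 13 histone genes of chromosome 6, 2 were higher and 2 lower (15.4% each), while 1 was higher and 3 lower within runs 3 to 5. HIST1H1D was at 357, 379 and 277 CPM, against 0, 158 and 380 CPM, and its 2.98 ± 0.23 was 0.77 without MDA-MB-231, which had no reads of it. HIST1H1B differed by 2.64 ± 0.16 and by -0.55 within runs 3 to 5, HIST1H2BD by -1.27 ± 0.18, and HIST1H1C by -1.06 ± 0.21.

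Cancer-testis genes, silent in most adult tissues, were switched on line by line. Of 27 tested, 7 were higher (25.9%) and 2 lower (7.41%). MAGEA4 was at 1006, 974 and 841 CPM, against 0, 0.169 and 1037 CPM, and HCC1395 was as high, at 976 ± 99.2 CPM (SD, n = 3). Its difference from the mean was 10.45 ± 0.18. MAGEA10 was at 116, 117 and 105 CPM, above the 67.1 CPM reached in HCC1395, and was the 1 member higher than in each line (6.11 ± 0.15). MAGEC2 was at 21.7, 24 and 26.9 CPM, with Hs578T at 30.7 ± 8.15 CPM and MDA-MB-157 at 21.7, 22.2 and 26.7 CPM. CT83 was at 6, 9.85 and 9.27 CPM, with HCC38 at 13.6 ± 1.14 CPM and MDA-MB-231 at 10, 7.13 and 7.39 CPM.

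MYC, the study's subject, was at 101, 106 and 96.7 CPM, near the others' median of 108 CPM in a range of 33.9 to 257 CPM. Its difference was 0.08 ± 0.15 (adjusted p = 0.654), and in the MYC and MAX network 1 of 14 genes was called, MLXIPL at 1.93 ± 0.66, which had 18 counts, was not called without MDA-MB-436 replicate 1 (adjusted p = 0.0881) and differed by -0.36 against the L-15 lines. Of 33 ribosome biogenesis genes 1 was higher (3.03%) and 2 lower (6.06%), but against the L-15 lines 10 were higher and 1 lower. HEATR1 was at 386, 382 and 350 CPM, above each line (1.5 ± 0.09), and POLR1C and UBTF, of the polymerase I machinery, differed by -1.11 ± 0.14 and -1.11 ± 0.12. UBTF was -0.97 without MDA-MB-436 replicate 3.

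Complex I, the entry point of electrons from NADH into the respiratory chain, showed single genes in both directions. Of 47 tested nuclear subunits and assembly factors 7 were higher (14.9%) and 6 lower (12.8%), close to the shares over all genes, and the median difference was -0.03. Yet 5 were above and 5 below each line. NDUFA9 was at 49.9, 47.3 and 39.5 CPM, against 4.08, 13.9 and 25.2 CPM, and the core subunit NDUFS3 at 59.4, 70.3 and 68.9 CPM, against 9.6, 23.1 and 37.5 CPM. Both lay above all others, by 1.75 ± 0.1 and 1.61 ± 0.12. NDUFS5 (1.25) and the assembly factors NDUFAF1 (1.23) and NDUFAF4 (1.48) were the other 3. NDUFA7 was at 1.67, 4.85 and 4.5 CPM, a difference of 2.16 ± 0.33 at low counts. On the low side NDUFB1 was at 46.5, 38.4 and 33.3 CPM, below the 72.7 to 198 CPM of the others (-1.72 ± 0.18), and the core flavoprotein NDUFV2 at 3.67, 3.18 and 3 CPM, against 3.71, 7.97 and 35.2 CPM (-1.55 ± 0.25). NDUFC2 (-1.3) and the assembly factors ACAD9 (-1.34) and NDUFAF6 (-1.19) were the other 3 below each line. None of the 13 mRNAs of the mitochondrial genome was called by edgeR, DESeq2 or limma-voom, with a median difference of -0.28 and 1 lower at edgeR's unadjusted p under 0.05, while 5 were lower against the L-15 lines alone. NDUFS1 held 15 counts in the 45 libraries and was not tested.

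**Figure D4:**
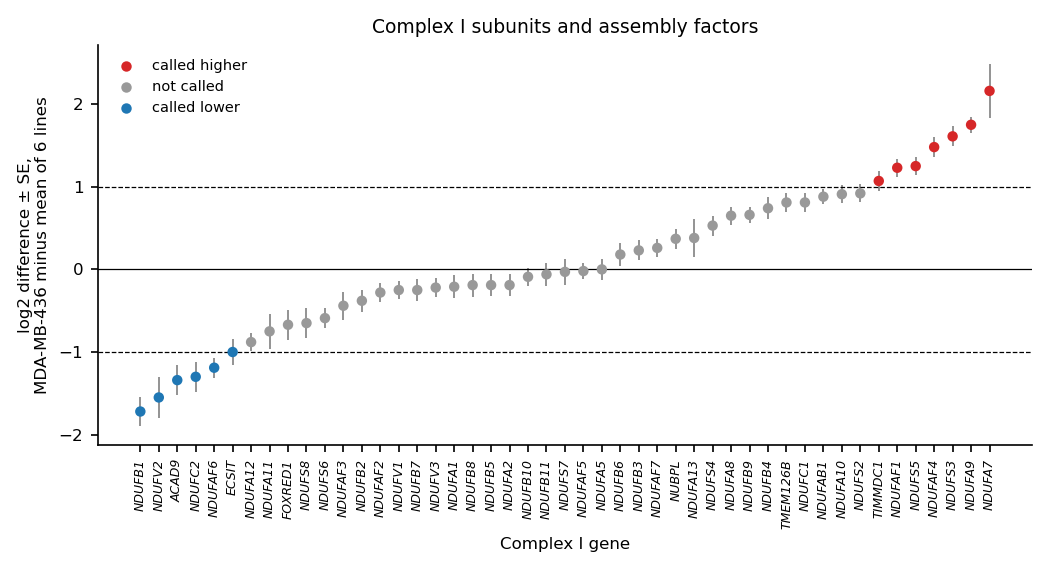
log2 difference between MDA-MB-436 and the mean of the 6 other lines for 47 complex I genes, in order of size; points are estimates, bars are standard errors, colours mark the calls and dashed lines a log2 difference of 1. The values run from -1.72 for NDUFB1 to 2.16 for NDUFA7, with 34 genes not called.

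In the TCA cycle list 8 of 37 genes were higher (21.6%) and 2 lower (5.41%). OGDHL, a tissue-restricted form of the oxoglutarate dehydrogenase subunit, was at 21.5, 23 and 19.5 CPM, against 0, 2.21 and 12.7 CPM, and differed by 4.23 ± 0.22 (adjusted p = 3.34e-14). MPC1, of the mitochondrial pyruvate carrier, was at 95.2, 96 and 90.7 CPM, against at most 51.1 CPM (1.67 ± 0.12), and SUCLG1 and PDHX were above each line by 1.12 and 1. ACO1 and IDH2, which make isocitrate and oxoglutarate, differed by 1.77 ± 0.12 and 1.69 ± 0.17. PDP1, the phosphatase that turns pyruvate dehydrogenase on, was at 78.1, 76.5 and 88.2 CPM, below the 115 to 613 CPM of the others (-1.9 ± 0.15), and malic enzyme ME2 was below each line (-1.27).

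Of 25 genes of glutamine uptake and use, 4 were higher (16%) and 1 lower (4%), with a median difference of 0.55. GLUL, glutamine synthetase, was at 222, 201 and 208 CPM, above the 2.86 to 138 CPM of the others (2.01 ± 0.12), and at 0.94 against the L-15 lines. PPAT, the first step of purine synthesis, was at 316, 350 and 309 CPM, against at most 181 CPM (1.67 ± 0.11). GFPT1 and GFPT2, which pass glutamine nitrogen to hexosamines, differed by 1.27 ± 0.12 and 2.04 ± 0.21, and by 0.65 and 0.67 against the L-15 lines. GFPT1 differed by 0.97 without BT-549. GFPT2 was at 135, 126 and 131 CPM, below the 138, 155 and 159 CPM of MDA-MB-157. The transporter SLC38A2 was the 1 lower gene (-1.24).

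Glycolysis genes were higher in 6 of 30 (20%) and lower in 5 (16.7%), against 13.8% and 11.7% of all tested genes. TXNIP, an inhibitor of glucose uptake, was at 1152, 1358 and 1085 CPM, above the 0 to 605 CPM of the others, and differed by 4.82 ± 0.21, or 1.48 against the L-15 lines, of which MDA-MB-157 held 449 ± 47.2 CPM. Hexokinase HK1 was at 902, 837 and 774 CPM, against at most 580 CPM (1.48 ± 0.1). Below the hexokinase step, PKM was at 754, 638 and 589 CPM, below the 995 to 2599 CPM of the others (-1.34 ± 0.17), ENO1 at 1308, 1301 and 1028 CPM, below 1523 to 5198 CPM (-1.28 ± 0.18), and LDHA at 418, 481 and 477 CPM, below 643 to 2716 CPM (-1.24 ± 0.21). The glucose transporter SLC2A3 differed by 2.66 ± 0.12 but by 0.45 against the L-15 lines, galactose mutarotase GALM by 2.25 ± 0.17 but by 0.18, and ALDOC by 2.41 ± 0.22 but by -0.14. L-15 holds galactose in place of glucose, and none of these 3 genes was called against the other L-15 lines. The part of the medium in these values was not tested. HCC1395, not grown in L-15, held GALM at 31.6, 23.2 and 25.1 CPM, beside 23.2, 29.6 and 27.5 CPM in MDA-MB-436. Its SLC2A3 was at 60.7 to 70.2 CPM, beside 67.1 to 74.1 CPM in MDA-MB-157, but its ALDOC was at most 0.754 CPM. In BT-549, HCC38 and Hs578T, also grown in other media, GALM reached at most 6.86 CPM and SLC2A3 at most 29.6 CPM.

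In serine and one-carbon metabolism 2 of 15 were higher (13.3%) and 1, TYMS, lower (6.67%). Against the L-15 lines the counts were 6 and 1, and they were 1 and 3 within runs 3 to 5. PHGDH, the first enzyme of serine synthesis, was at 304, 304 and 257 CPM, within 1.46 to 374 CPM (2.42 ± 0.15). GLDC was at 36, 43.5 and 34.1 CPM, below all libraries of BT-549 and HCC1395 (70.8 to 94.4 CPM). It differed from the mean by 2.33 ± 0.15, or 0.61 within runs 3 to 5. Of 20 integrated stress response genes 8 were higher (40%) and 0 lower by edgeR, with 3 lower at its unadjusted p under 0.05, and DESeq2 and limma-voom each called 1 lower. Within runs 3 to 5 the counts were 8 and 3. The cystine importer SLC7A11 was at 900, 879 and 731 CPM, within 46.3 to 1353 CPM (1.98 ± 0.17). ATF3 was at 36.7, 30.2 and 37.4 CPM, above the 6.64 to 29.6 CPM of the others (1.57 ± 0.21). STC2 differed by 1.99 ± 0.16 but, at 142, 145 and 140 CPM, lay below all libraries of BT-549 and Hs578T (253 to 703 CPM).

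Glutathione was added only to the medium of MDA-MB-436. Of 35 glutathione and NRF2 genes tested, 6 were higher (17.1%) and 5 lower (14.3%), against 13.8% and 11.7% of all tested genes. GGT1, which cleaves glutathione outside the cell, was at 14, 10.8 and 12.5 CPM, against at most 5.53 CPM (3.4 ± 0.26). MGST1, a membrane glutathione transferase, was at 207, 272 and 195 CPM, against 0.741, 36.4 and 192 CPM (3.3 ± 0.13). Both lay above each line. AKR1C1 was at 650, 615 and 256 CPM, overlapping with HCC38 and Hs578T, and GPX4 was below each line (-1.27 ± 0.21). The 2 chains of the ligase that makes glutathione were not called: GCLC differed by -0.73 ± 0.14 and GCLM by 0.12 ± 0.17. Medium and line cannot be told apart for any of these genes.

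The same holds for insulin, at its highest in the MDA-MB-436 medium. Of 32 insulin and IGF genes 4 were higher (12.5%) and 8 lower (25%). IGF1R was at 28.7, 36.1 and 39.1 CPM, above the 9.29 to 26.5 CPM of the others (1.17 ± 0.14), and INSR, at 22.8, 23.2 and 30.8 CPM, was not called. IRS1 differed by -0.84 ± 0.16 and was not called either. IRS2 differed by 2.14 ± 0.29, by 0.7 without HCC1395, which had no reads of it, and by -0.7 against the L-15 lines. IGFBP2 was at 31.9, 31.7 and 32 CPM, against 0, 2.46 and 34.4 CPM (4.07 ± 0.18), and IGFBP7 and IGFBP4 differed by -3.37 ± 0.37 and -2.57 ± 0.31. INPP4B, a lipid phosphatase that dampens AKT, was at 7.34, 9.1 and 7.91 CPM, below the 22.6 to 138 CPM of the others (-2.68 ± 0.16), and AKT1 itself was below each line (-1.3 ± 0.2). Cholesterol and fatty acid genes were lower in 5 of 28 (17.9%) and higher in 0 by edgeR, DESeq2 and limma-voom, with 3 higher at edgeR's unadjusted p under 0.05. The desaturase SCD was at 112, 126 and 154 CPM, against 107, 251 and 1823 CPM (-1.39 ± 0.2), and the regulator SREBF1 differed by -1.2 ± 0.18; neither was called against the L-15 lines, where SCD was at -0.38. DHCR7 differed by -1.17 ± 0.16. FDFT1 had 19 counts in MDA-MB-436 and was not called without MDA-MB-436 replicate 2 (adjusted p = 0.0917).

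Receptor tyrosine kinases and EGF ligands were higher in 9 of 41 and lower in 9 (22% each). Within runs 3 to 5 the counts were 14 higher and 3 lower, and against the L-15 lines 9 and 15. EGFR was at 144, 157 and 136 CPM, within 27.2 to 180 CPM, and missed the fold threshold at 0.99 ± 0.1 (adjusted p = 2.78e-09). FGF2 was at 381, 426 and 286 CPM and PDGFA at 62.5, 63.1 and 61.9 CPM, both within the others' range, and differed by 2.54 ± 0.13 and 2.66 ± 0.12. The collagen receptor DDR2 differed by 2.59 ± 0.15, at 266, 266 and 243 CPM within the 2.68 to 382 CPM of the others. The angiogenic ligand VEGFA differed by -1.63 ± 0.15, with HCC1395 lower still, at 38.1, 41.6 and 43.5 CPM. In the hypoxia list 2 of 20 were higher (10%) and 4 lower (20%), with 1 and 11 against the L-15 lines and 5 and 2 within runs 3 to 5. CA12 differed by 3.27 ± 0.17, at 91.6, 94 and 84.3 CPM, with Hs578T at 214, 86.4 and 157 CPM. BNIP3L differed by -1.85 ± 0.19 and SLC2A1 by -1.49 ± 0.17, or -0.34 within runs 3 to 5. Of 25 BCL2 family and death receptor genes 4 were higher (16%) and 1 lower (4%), and against the L-15 lines 3 and 3. HRK, a BH3-only killer protein, was at 25.4, 26.1 and 33.7 CPM, above the 0.191 to 10.9 CPM of the others (4.01 ± 0.28), and the effector BAK1 at 5.67, 6.37 and 4.77 CPM, below 7.61 to 25.2 CPM (-1.21 ± 0.2). BCL2A1 differed by 2.25 ± 0.63, at 3, 1.97 and 2.73 CPM within the 0 to 4.8 CPM of the others. Of 30 HOX genes 8 were higher (26.7%) and 6 lower (20%), but 4 were higher and 12 lower within runs 3 to 5. HOXD4, at 1.67, 2.12 and 2.73 CPM against at most 0.679 CPM, was the 1 above each line (5.28 ± 0.54), and HOXC10 and HOXB2 differed by -2.97 ± 0.49 and -2.96 ± 0.5. HOXC12 was not called without HCC1395 replicate 2 or MDA-MB-231 replicate 3 (adjusted p = 1). Of 5 metallothioneins 1, MT1A, was higher (20%), at 1.33, 1.97 and 1.23 CPM (3.1 ± 0.56). MDA-MB-231 held more of it, at 4.17, 10.7 and 11.9 CPM.

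The calls were spread unevenly over the chromosomes, a grouping made after the values were seen. Of 502 tested protein-coding genes of chromosome 8, 168 were lower in MDA-MB-436 (33.5%) and 54 higher (10.8%), against 12% lower and 13.4% higher over 14259 such genes on all chromosomes. The median difference on chromosome 8 was -0.55, and 70 of its genes lay below each of the 6 lines. In 10 Mb windows of at least 20 tested genes, 41 of 49 genes between 90 and 100 Mb of chromosome 8 were lower (83.7%), and 28 of 38 between 100 and 110 Mb (73.7%). Medians there were -1.47 and -1.49, the latter being the lowest of any window. Among the genes named above, KCTD9, TNFRSF10D, ANGPT1, NBN, CCNE2, PDP1, NDUFAF6, BNIP3L, FDFT1 and IKBKB, all lower, are on chromosome 8. So are TNFRSF10A, which was higher (1.19), and MYC, which was not called.

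Chromosomes 18, 19, 6 and 14 also held many lower genes, at 21.8%, 20.7%, 20.5% and 19.4%. Chromosome 14 carries RAD51B, LTBP2, BMP4, MMP14, NDUFB1 and AKT1, and 47 of its 433 tested genes lay below each line. Chromosome 18 carries SMAD4, SMAD7, ME2 and NDUFV2. Higher genes were most frequent on chromosome 15, with 111 of 452 (24.6%), and on the X chromosome, with 132 of 544 (24.3%). Chromosome 15 carries TP53BP1, IGF1R, IDH2 and NDUFAF1. The windows with the highest medians were 100 to 110 Mb of chromosome 13 (1.57, 13 of 22 genes higher) and the first 10 Mb of chromosome 7 (1.12, 38 of 66 higher). DNA copy number was not analysed here, and its part in these values was not tested.

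**Figure D5:**
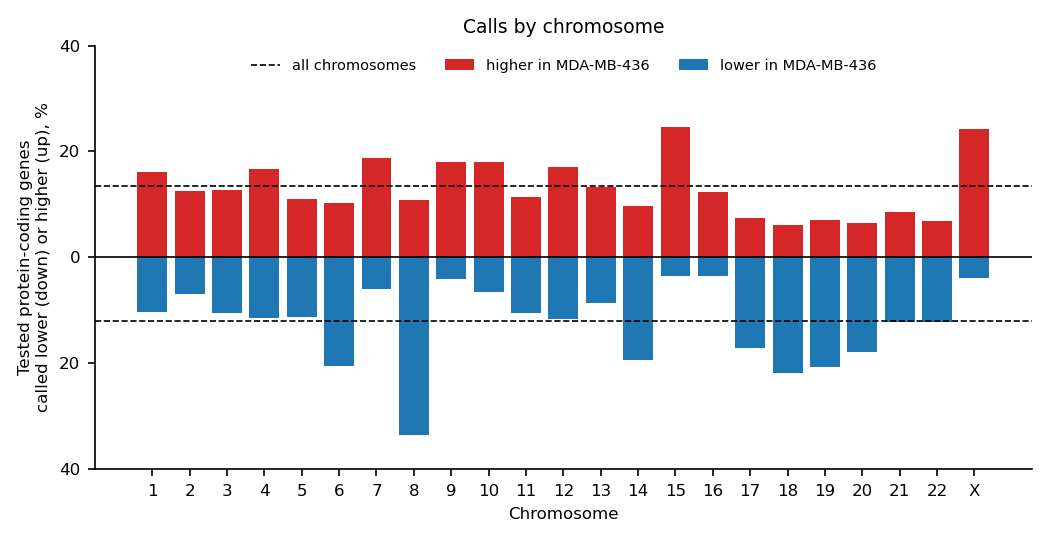
Share of tested protein-coding genes of each chromosome called higher (up, red) or lower (down, blue) in MDA-MB-436, in percent; dashed lines mark 13.4% and 12%, the shares over all chromosomes. Chromosome 8 reaches 33.5% on the lower side, and chromosomes 15 and X reach 24.6% and 24.3% on the higher side.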

How the data were processed

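The deposited table holds raw counts per gene; per the submitters' processing notes, bcl2fastq 2.20.0.422, Trimmomatic, STAR and featureCounts were used with GRCh38, and whether counting used strand is not given in the sources used here. Identifiers were matched to GENCODE 29 (58275 of 64440, 90.4%; the others held 0.0785% of counts). The 21 libraries of the 7 lines were fitted with edgeR 4.0.16 (R 4.3.3; TMM scaling, filterByExpr with min.count 10, glmQLFit, glmQLFTest), with 1 coefficient per line, and p-values were adjusted by Benjamini-Hochberg over 18272 genes. Calls needed an adjusted p under 0.05 and an absolute log2 difference of at least 1. In simulated counts of 16786 genes, recovery was an adjusted p under 0.05 with the right sign, without the minimum difference. So counted, 90% of genes changed by log2 1 and 100% by log2 2 were recovered. The median estimate for log2 1 was 0.996, so many of those would miss the minimum difference. With that minimum, 1 unchanged gene was called. All other lines were given the same levels and all genes the same spread, unlike in the data. That spread was below the common value fitted to the data, and changes were placed only in genes with higher expected counts. Recovery among genes of low counts was not measured. The gene lists, their members and the named genes were chosen with earlier results of these data known, while the lines compared were taken by name. Named genes are the 12 highest and 12 lowest protein-coding genes called against every line with at least 10 CPM, up to 4 called members per list, and 26 fixed names; other members given were chosen after their values were seen, and some genes taken by the rule are not reported here. No list was tested as a set. Alternatives were DESeq2 1.42.0, limma-voom (limma 3.58.1), other filters and scaling, all 45 libraries, subsets of lines, line sums and each library left out. Replicate numbers equal the run for the 4 lines of runs 3 to 5 only. Over 9 same-run pairs of MDA-MB-436 with those lines, deviations from line means had a median correlation of -0.0622, and 0 pairs exceeded 0.1. Over all 18 same-run pairs of these 4 lines the median was 0.0541 and 5 exceeded 0.1. Over their 36 pairs of different number the median was -0.0232 and 4 exceeded 0.1, so same-run pairs were somewhat more alike. The main fit did not take numbers as pairing the samples, and fits with the replicate number or the run as a block are given below.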

Additional observations from a re-analysis of the deposited data

How the results depend on the processing

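With the replicate number as a block, 2561 genes were higher and 2120 lower than the mean, and 592 and 628 than each line; with the run as a block in runs 3 to 5 the counts against each of the 3 lines were 1384 and 1348, and without that block 1347 and 1330. Fewer lines make that rule easier to pass, as do the 2 other L-15 lines (1969 and 1875). Without a filter on low counts 3931 genes were higher than the mean, 447 were higher and 401 lower than each line, and without a minimum difference 5235 and 4692 were called. Over line sums 0 and 0 were called. Leaving out 1 library gave 2375 to 2889 higher and 1956 to 2195 lower genes, 494 to 684 and 541 to 705 against each line, and 4 to 6 genes without reads. Leaving out 1 line gave 2411 to 2721 and 2086 to 2262. Of 155 named genes called, 121 kept the call against the L-15 lines and 129 within runs 3 to 5.

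Signs turned as follows, and the cause was not tested. Within runs 3 to 5, without and with the block, CDKN2A was -0.82 and -0.83, HIST1H1B -0.55 and -0.57, KRT15 0.23 and 0.23, INSR -0.69 and -0.7, CDH1 0.53 and 0.52, ZEB1 -0.51 and -0.52, and EPCAM 1.84 and 1.82, with CLDN4 at 0.33 under the block. Against the L-15 lines ALDOC was -0.14, MLXIPL -0.36, INSR -0.97, IRS2 -0.7, CDH1 0.04 and ZEB1 -0.24. Without HCC1395 GCLM was -0.04. Without HCC38 CDH1 was 0.43, ZEB1 -0.68 and EPCAM 1.06. Without MDA-MB-157 MYC was -0.19, GCLM -0.11 and ZEB1 -0.04. Without 1 library ZEB1 ran from -0.03 to 0.07, below 0 in 6 of the fits. Over line sums CDKN2A was -0.41, MT1A -0.08, STC2 -0.11, HIST1H1B -0.36, MYC -0.18, INSR -0.28, GCLM -0.15 and ZEB1 -0.59. The number of lower genes on chromosome 8 was 128 to 194 over subsets of lines, and depth leaves genes under about 1 CPM imprecise.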
